A study of Mus musculus with 6 samples.

Results

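Polyamines (putrescine, spermidine and spermine) are small positively charged molecules that bind nucleic acids and are needed for growth and translation. Ornithine decarboxylase (Odc1) makes putrescine, and spermidine synthase (Srm) and spermine synthase (Sms) add aminopropyl groups supplied by S-adenosylmethionine decarboxylase (Amd1). Spermidine/spermine N1-acetyltransferase (Sat1) acetylates the higher polyamines so that they can be exported or oxidized back by Paox, while Smox oxidizes spermine directly. The antizymes Oaz1 and Oaz2 bind ornithine decarboxylase and send it to the proteasome, and the antizyme inhibitor Azin1 frees it. In macrophages, arginine feeds this pathway through ornithine.

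These 10 genes were examined in sorted LYVE-1+ tumor-associated macrophages (TAMs), out of 21841 genes measured, and all 10 are listed in the data. They were chosen by the contrast of treatments, because Sat1 was among the genes that differed most between the treatment groups in these same libraries, so the values of Sat1 in that contrast are given as a description with no test, and the question asked was whether the rest of the pathway followed. Mammary tumors of the MMTV-PyMT model, in which a mammary tumor virus promoter drives the polyoma middle T oncogene and tumors arise spontaneously, were the source of the cells. All 6 mice carried this transgene on the FVB/N background (FVB/N-Tg(MMTV-PyVT)634Mul/J) and were otherwise wild type by label. For 36 h, 3 mice were given vehicle and 3 were given KCL-HO-1i, a tin mesoporphyrin inhibitor of the heme-degrading enzyme HO-1 in a phosphate salt form, at 25 µmol/kg/day by intraperitoneal injection. The ages of the mice were not given in the sources used here. For bulk RNAseq, 5000 cells carrying CD206 and LYVE-1 were sorted per condition from the live CD45+F4/80+ gate, and the values are estimated counts per gene.

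The libraries were shallow and uneven. Estimated counts summed to between 206728 and 338255 in the vehicle libraries and between 207812 and 535224 in those of treated mice. Genes with any count numbered 15105, 14017 and 17320 in vehicle replicates 1, 2 and 3. They numbered 7584, 15150 and 10781 in KCL-HO-1i replicates 1, 2 and 3. KCL-HO-1i replicate 1 thus had the fewest, and a count of 0 in it is to be read with that limit. The mitochondrial share was 1.17% to 3.77% with vehicle and 2.45% to 41.8% with KCL-HO-1i, where replicate 3 was the highest. A list of 15 general macrophage genes took 0.0344% to 0.132% of the counts with vehicle and 0.324% to 0.551% with KCL-HO-1i. These summed shares did not overlap, but the members of the list went both ways. Of the 9 with enough counts to be tested, 7 were higher in treated mice, and 32.6% of all genes tested were. The other 2, Cd68 and Cx3cr1, were lower. These numbers are a description, because the filter on low counts can admit a gene through 1 group alone. Adgre1 (3, 3 and 1 counts with vehicle), Tyrobp (22, 0 and 0) and Ctss (33, 0 and 1) passed through the treated libraries. Cx3cr1 passed through the vehicle libraries. Lyz2, the most counted in total, had 115, 9 and 33 counts in vehicle mice, against 330, 814 and 781 in treated mice. Cx3cr1 had 10, 23 and 14 against 0, 27 and 0. Of the genes of the sort itself, Lyve1 had 8 to 22 counts with vehicle and 8 to 38 with KCL-HO-1i, whereas Mrc1, which encodes CD206, had 0 to 12 with vehicle and 30.6 to 104 with KCL-HO-1i. Ptprc, which encodes CD45, was at 0 in vehicle replicate 3 and KCL-HO-1i replicate 1. A list of 12 epithelial genes took 0.00974% to 0.0320% of the counts with vehicle and 0.0375% to 0.172% with KCL-HO-1i, and its members went both ways. The milk protein gene Csn3 had 1 to 39 counts against 79 to 244, whereas the epithelial cadherin gene Cdh1 had 5, 12 and 13 counts in vehicle mice, against 0, 3 and 0 in treated mice. A list of 7 fibroblast genes took 0.0269% to 0.0299% with vehicle and 0.00626% to 0.0108% with KCL-HO-1i, and a list of 8 endothelial genes took 0.0241% to 0.0278% and 0.00566% to 0.0139%, so both shares were lower in treated mice without overlap. Their members did not all go that way. Pdgfra, the most counted fibroblast gene, had 32, 50 and 45 counts in vehicle mice, against 10, 1 and 32 in treated mice. Col3a1 had 5 counts in treated replicate 3 and 0 elsewhere. The endothelial gene Cdh5 had 7, 29 and 13 counts in vehicle mice, against 0, 7 and 0 in treated mice. Emcn, also endothelial, had 1, 11 and 6 against 13, 12 and 0. T cell genes took 0.00457% to 0.0152% and 0.00299% to 0.00962%, which overlapped. The part of these lists in the results was not tested. In bulk samples, fewer cells of a type and less RNA per cell cannot be told apart. The codes of all vehicle mice begin alike and no treated mouse has that beginning, so treatment and any batch tied to the codes cannot be told apart.

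The antizyme transcripts are read in an unusual way, and they are shown because Oaz1 was the one member besides Sat1 whose treated libraries all stood above the vehicle libraries in counts scaled by TMM, though not when set against macrophage genes. Translation starts in one frame, meets a stop codon early and continues only if the ribosome shifts forward by 1 base, a step that polyamines promote. The site of the shift was located in the coding sequences of GENCODE M21 on GRCm38, and 66 coding bases around it are shown 5′ to 3′ with the last codon of the first frame and its stop codon in capitals. Oaz1 lies at chr10:80826656-80829290 on the plus strand and its window at chr10:80828262-80828327, and Oaz2 lies at chr9:65668001-65690300 on the plus strand and its window at chr9:65686239-65686304.
Oaz1: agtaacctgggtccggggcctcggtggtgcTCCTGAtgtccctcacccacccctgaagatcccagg
Oaz2: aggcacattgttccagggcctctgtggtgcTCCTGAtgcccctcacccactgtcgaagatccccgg
In Oaz1, 68 codons stand before the stop and 159 follow in the shifted frame, and in Oaz2 the numbers are 32 and 157. The windows were identical at 53 of 66 bases, including the whole stop context in capitals. Counts of these transcripts say nothing of how often the shift occurs.

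Sat1 (ENSMUSG00000025283, chrX:155213132-155216449, minus strand) made up most of the pathway's counts after KCL-HO-1i and little of them with vehicle. Its estimated counts were 12.6, 7 and 12.5 in vehicle replicates 1, 2 and 3 and 287, 244 and 620 in KCL-HO-1i replicates 1, 2 and 3. In CPM (counts per 1000000) scaled between libraries by edgeR's TMM method, its level was 49.9 ± 19.8 in vehicle mice (SD, n = 3), against 1508 ± 645 in treated mice (SD, n = 3), a ratio of 30.2 between the means. All treated libraries lay far above all vehicle libraries, and the lowest treated value, 975 CPM in replicate 2, was well over the highest vehicle value, 72.7 CPM in replicate 1. The fitted log2 fold change was 4.91 (SE 0.89). GENCODE M21 holds 2 pseudogenes that match Sat1 at 95.8% over 474 bases and 96.7% over 515 bases, and neither is listed in the data.

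**Figure D1:**
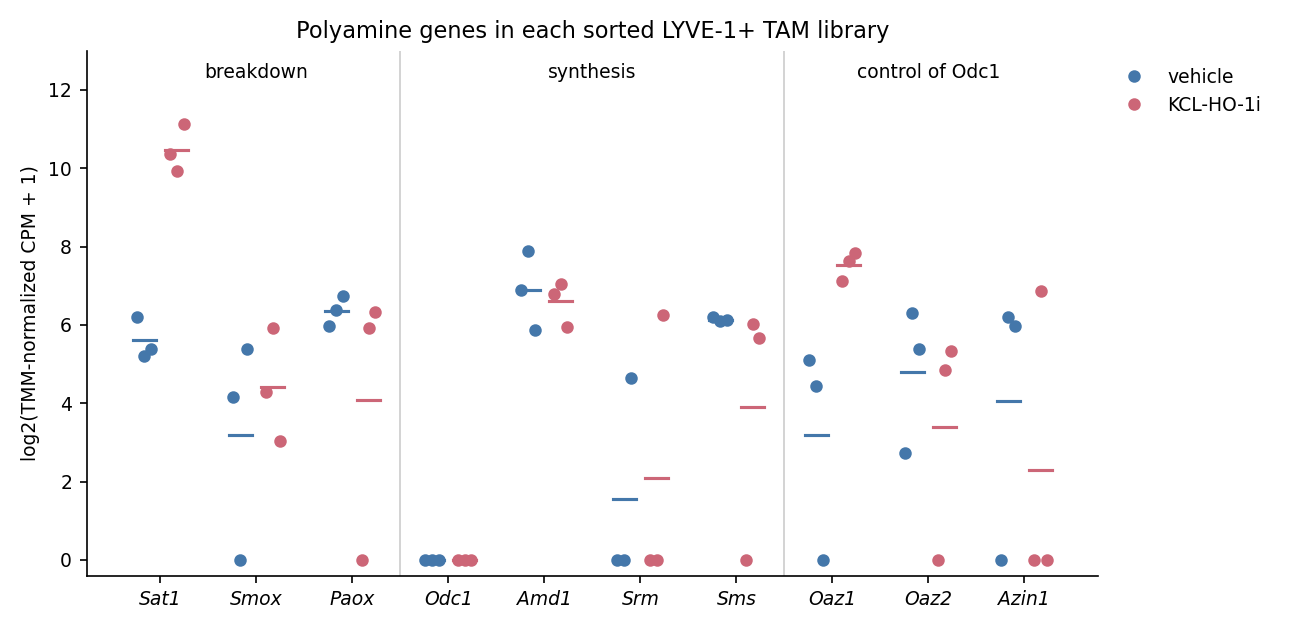
Level of each polyamine gene in every library, as log2(TMM-normalized CPM + 1), with 3 vehicle (blue) and 3 KCL-HO-1i (red) libraries and a line at the mean of the plotted values. Sat1 and Oaz1 are the genes whose treated libraries all lie above the vehicle libraries on this scale (Sat1 alone when scaled to macrophage genes), and Odc1 is at 0 in all 6.

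Oaz1 (ENSMUSG00000035242), the major antizyme, was the next to stand apart. Its counts were 6.18, 4 and 0 in vehicle replicates 1, 2 and 3 and 30.1, 48.8 and 63.2 in KCL-HO-1i replicates 1, 2 and 3. In TMM-normalized CPM the level was 18.1 ± 16.9 in vehicle mice (SD, n = 3), against 187 ± 44.6 in treated mice (SD, n = 3), a ratio of 10.3, and the groups did not overlap. The log2 fold change was 3.39 (SE 1.24), and edgeR's quasi-likelihood test gave an unadjusted p of 0.0196 and, after Benjamini-Hochberg adjustment over all 7263 genes tested, an adjusted p of 0.455. Its vehicle counts were all below the minimum count of 10 of the filter on low counts. Oaz1 thus passed that filter only through the treated libraries, where it is high. Its p-values in filtered fits are therefore a description and no support for a rise. Oaz1 was therefore not called, a call needing an adjusted p under 0.05 and a log2 fold change beyond 0.6 in either direction. The two-sided exact permutation test of its CPM gave p = 0.10, the smallest value that 3 mice against 3 allow. The pseudogene Oaz1-ps, which matches Oaz1 at 99.3% over 685 bases, is not listed in the data.

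The call for Oaz1 depended on the tool. With limma voom and sample quality weights its log2 fold change was 4.74 and its adjusted p 0.0240, which passes the threshold, as did 4.12% of all genes tested in that fit. With DESeq2 the adjusted p was 0.124 without a filter on low counts, where 184 of 19518 genes (0.943%) were called, and 0.0736 on the filtered genes. In edgeR's fit, 0 of 7263 genes were called (0%, and likewise 0% of genes in the higher direction), 8.07% had an unadjusted p under 0.05, and 5.01% had one and were higher with KCL-HO-1i.

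The other regulators of ornithine decarboxylase did not show this separation. Oaz2 (ENSMUSG00000040652) had 1, 15 and 12 counts in vehicle mice, against 0, 7 and 11 in treated mice, with overlapping groups, and it did not pass the filter on low counts. Azin1 (ENSMUSG00000037458, chr15:38487427-38519266, minus strand) was absent from 1 vehicle and 2 KCL-HO-1i libraries, with 0, 14 and 18.2 counts in vehicle mice, against 0, 29 and 0 in treated mice. Its log2 fold change was -0.21 (SE 1.901, adjusted p = 0.984 in edgeR's test), and the SE is so wide that neither a large rise nor a large fall can be told from no change. The groups overlapped for both genes.

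Odc1 (ENSMUSG00000011179, chr12:17544794-17551505, plus strand), the enzyme these regulators act on, was listed at 0 in all 6 libraries. Counting error alone would allow up to 3 counts in each, or 5.61 to 14.5 CPM of the library totals. GENCODE M21 holds 11 pseudogenes that match its longest coding transcript at 90% identity or more over at least 400 bases, and 0 of them are listed in the data. Whether reads of Odc1 were given to such copies or left out was not tested, so the 0 is not read as absence of the transcript.

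Amd1 (ENSMUSG00000075232, chr10:40287458-40302186, minus strand), which supplies the aminopropyl donor, was the most counted member after Sat1 in total. Its counts were 20.5, 46.0 and 17.1 in vehicle mice, against 24.0, 32.7 and 16.9 in treated mice, and the groups overlapped. The level was 138 ± 91.6 CPM in vehicle mice (SD, n = 3), against 101 ± 36.4 CPM in treated mice (SD, n = 3). The log2 fold change was -0.44 (SE 0.90), and the adjusted p was 0.943 in edgeR's quasi-likelihood test.

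Reads of Amd1 are hard to tell from those of Amd2 (ENSMUSG00000063953, chr10:35708675-35711892, minus strand), a near copy of it that is also listed. GENCODE M21 holds 7 more near copies of Amd1 as pseudogenes, among them Amd-ps3 at 99.9% and Amd-ps4 at 99.5% over 1005 bases, none of them listed. The transcripts matched at 99.6% of 3202 aligned bases, and over 1002 coding bases the genes differed at 1 position, G796C, with the Amd1 base first and positions counted from 1 at the first coding base. The 60 coding bases around it are shown with the differing base in capitals, on the minus strand of GRCm38 at chr10:40290157-40290216 for Amd1 and chr10:35710735-35710794 for Amd2.
Amd1: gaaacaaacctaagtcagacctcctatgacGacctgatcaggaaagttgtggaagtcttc
Amd2: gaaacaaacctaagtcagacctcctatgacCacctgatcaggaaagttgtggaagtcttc
Amd2 had 16.9, 11.6 and 47.9 counts in vehicle mice, against 11, 28.3 and 22.1 in treated mice. The share of the pair's counts given to Amd1 ran from 26.3% to 79.8% in the vehicle libraries and from 43.4% to 68.5% in the KCL-HO-1i libraries, so the split between the copies is uncertain. The sum of both was steadier, at 245 ± 48.0 CPM in vehicle mice (SD, n = 3), against 182 ± 54.8 CPM in treated mice (SD, n = 3). Its groups overlapped (two-sided exact permutation test, p = 0.30, unadjusted, n = 3 per group). That test cannot give a p below 0.1 with 3 mice against 3, so it cannot show that the sums are alike. Summed before the fit, the pair had a log2 fold change of -0.42 (SE 0.73).

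The aminopropyl transferases were low. Srm (ENSMUSG00000006442, chr4:148591503-148594993, plus strand) was detected in replicate 3 of each group alone, with 7 counts in vehicle mice, against 21 in treated mice, and did not pass the filter. Sms (ENSMUSG00000071708, chrX:157443855-157492287, minus strand) had 12.5, 12.7 and 19.5 counts in vehicle mice, against 0, 16 and 14 in treated mice. In CPM its treated libraries all lay below the vehicle libraries, with 63.9 against 67.2 at the point where they came closest, and 16.1% of all genes tested lay so. The log2 fold change of Sms was -0.85 (SE 1.36), with an adjusted p of 0.936 in edgeR's test. GENCODE M21 holds 6 near copies of Sms as pseudogenes and 1 of Srm, none of them listed.

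The oxidases that act beside or after Sat1 did not separate the groups. Paox (ENSMUSG00000025464, chr7:140115799-140137224, plus strand), which oxidizes the acetylated polyamines that Sat1 makes, had 11, 16 and 31.3 counts in vehicle mice, against 0, 15 and 22 in treated mice. Its log2 fold change was -0.84 (SE 1.31, adjusted p = 0.936 in edgeR's test), and its groups overlapped. The pseudogene Gm19680, which matches Paox at 99.9% over 1358 bases, is not listed in the data. Echs1 overlaps Paox on the opposite strand; the library kit keeps strand, but the counting setting is not given in the sources used here. Smox (ENSMUSG00000027333, chr2:131491496-131525922, plus strand), which oxidizes spermine, had 3, 0 and 11.8 counts in vehicle mice, against 4, 15.1 and 2.10 in treated mice, and did not pass the filter.

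In all, 6 of the 10 members passed the filter on low counts (Sat1, Oaz1, Azin1, Amd1, Sms and Paox), and Odc1, Oaz2, Srm and Smox did not. Of the 5 that passed besides Sat1, 0 were called by edgeR's quasi-likelihood test and 1, Oaz1, had an unadjusted p under 0.05. Of all genes tested, 0% were called and 8.07% had an unadjusted p under 0.05. Of the same 5 genes, 1 had a log2 fold change above 0, and 32.6% of all genes tested had one. Their median log2 fold change was -0.44, and that over all genes tested was -0.52. Of the 9 members other than Sat1, 1 had all treated libraries above all vehicle libraries, again Oaz1, and 7.88% of all genes tested did so. That share covers only genes that passed the filter, as Oaz1 did through its treated libraries alone. The counts that rest on Oaz1 are thus a description.

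Within a library, the split of counts among the members does not depend on scaling between libraries. Sat1 held 18.8%, 6.11% and 9.66% of the members' counts in vehicle replicates 1, 2 and 3, with 95% Wilson confidence intervals of 11.7% to 30.4%, 2.98% to 12% and 5.40% to 15.6%. It held 83.2% (78.9% to 86.8%), 59.8% (55.1% to 64.6%) and 80.5% (77.6% to 83.2%) in KCL-HO-1i replicates 1, 2 and 3. Since Sat1 was chosen for its difference in these libraries, the shares are a description of it. The intervals treat each count as an independent molecule and leave out the spread between mice. The counts are estimates and carry no molecular identifiers, so the intervals may be too narrow even for counting error. Oaz1 was the other member whose treated libraries all lay above the vehicle libraries in TMM-normalized CPM. Against it, Sat1 had 2.03 and 1.75 counts per Oaz1 count in vehicle replicates 1 and 2, while vehicle replicate 3 had no Oaz1 count. That ratio was 9.53, 4.99 and 9.81 in KCL-HO-1i replicates 1, 2 and 3. The 8 members other than Sat1 and Oaz1 together stood at 274, 538 and 399 CPM with vehicle and at 129, 460 and 312 CPM with KCL-HO-1i, and these groups overlapped.

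**Figure D2:**
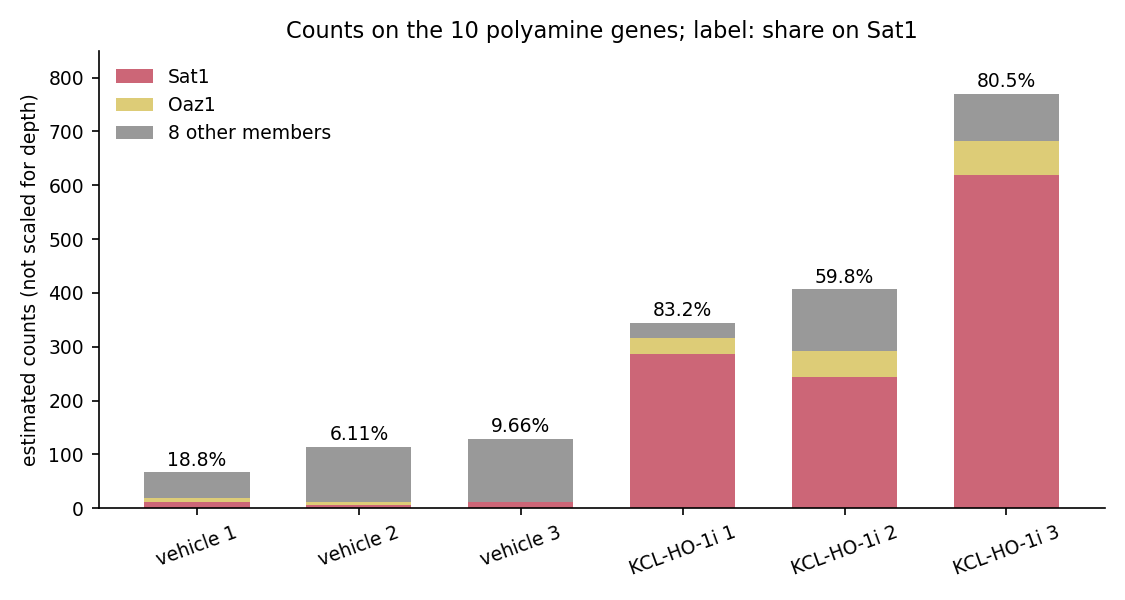
Estimated counts on Sat1, Oaz1 and the 8 other polyamine genes in each library, unscaled, with the percentage on Sat1 printed above each bar. The share on Sat1 is 6.11% to 18.8% with vehicle and 59.8% to 83.2% with KCL-HO-1i.

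The levels were also set beside genes that macrophages are not known to use. Estimated counts per kb of the longest coding transcript were compared with those of 1474 olfactory and vomeronasal receptor genes, which took 5.98% to 6.40% of all counts with vehicle and 2.20% to 4.18% with KCL-HO-1i. With KCL-HO-1i, Sat1 had 247, 210 and 533 counts per kb in replicates 1, 2 and 3, and Oaz1 had 28.1, 45.6 and 59.0, all above the 95th percentile of the receptor genes, which was 9.06, 6.62 and 9.34. With vehicle, Sat1 had 10.8, 6.02 and 10.8 counts per kb in replicates 1, 2 and 3, against a 95th percentile of 7.43, 8.05 and 9.51, so it stood just above that level in replicates 1 and 3 and below it in replicate 2. Oaz1 with vehicle, at 5.77, 3.73 and 0 counts per kb, lay within their range.

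Among the other members, the 95th percentile was passed by Amd1 in vehicle replicate 2 (14.3 counts per kb) and KCL-HO-1i replicate 2 (10.2), by Oaz2 in vehicle replicate 2 (8.14) and by Srm in KCL-HO-1i replicate 3 (15.7). Odc1, Azin1, Sms, Smox and Paox did not pass it in any library. Where they were counted, Sms stood above 69.5% to 85.8% of the receptor genes and Paox above 55.9% to 84.5%.

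**Figure D3:**
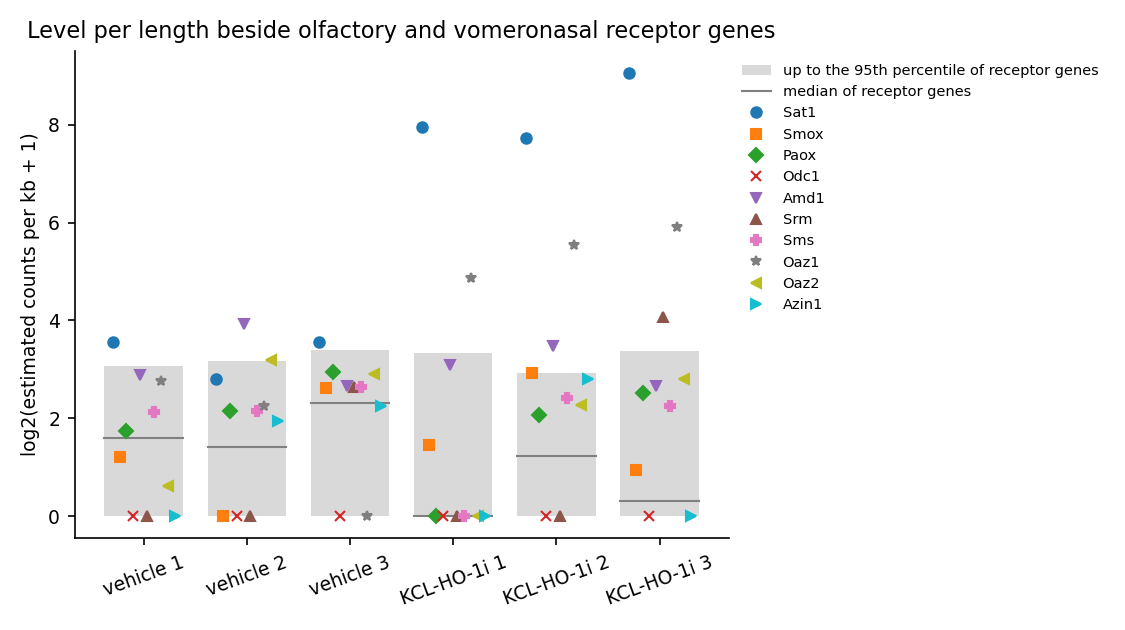
Estimated counts per kb of transcript for the 10 polyamine genes in each library, as log2(value + 1), over a grey band that reaches the 95th percentile of 1474 receptor genes with a line at their median. Sat1 and Oaz1 leave the band in all KCL-HO-1i libraries, and Odc1, Azin1, Sms, Smox and Paox stay within it throughout.

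Taken as a sum, though not each alone, the general macrophage genes also took a larger share of the treated libraries. The members were therefore set against that sum within each library. Sat1 had 46.0, 93.4 and 107 counts per 1000 counts on the macrophage genes in vehicle replicates 1, 2 and 3 and 331, 138 and 358 in KCL-HO-1i replicates 1, 2 and 3. On this scale the groups were closer than in CPM and did not overlap. The macrophage genes had 274, 75.0 and 116 counts in vehicle replicates 1, 2 and 3. They had 867, 1762 and 1733 in KCL-HO-1i replicates 1, 2 and 3. The vehicle ratios thus rest on few counts, and whether the gap from 107 to 138 exceeds counting error was not tested. Oaz1 had 22.6, 53.4 and 0 per 1000 in vehicle mice, against 34.7, 27.7 and 36.5 in treated mice, so its groups overlapped and the treated values lay between those of vehicle replicates 1 and 2. Of the 9 members other than Sat1, 0 had all treated libraries above all vehicle libraries on this scale, and 0.757% of all genes tested did. That share covers only genes that passed the filter on low counts. With libraries scaled to the macrophage genes, the log2 fold change fell to 1.77 (SE 1.37) for Sat1 and 0.46 (SE 1.52, adjusted p = 0.778 in edgeR's test) for Oaz1. In the same fit Amd1, Azin1, Sms and Paox were all called lower, with log2 fold changes of -3.88, -4.27, -4.43 and -4.55 and adjusted p of 0.0207 to 0.0274, as were 66.1% of all genes tested, and the median over all genes was -3.95.

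**Figure D4:**
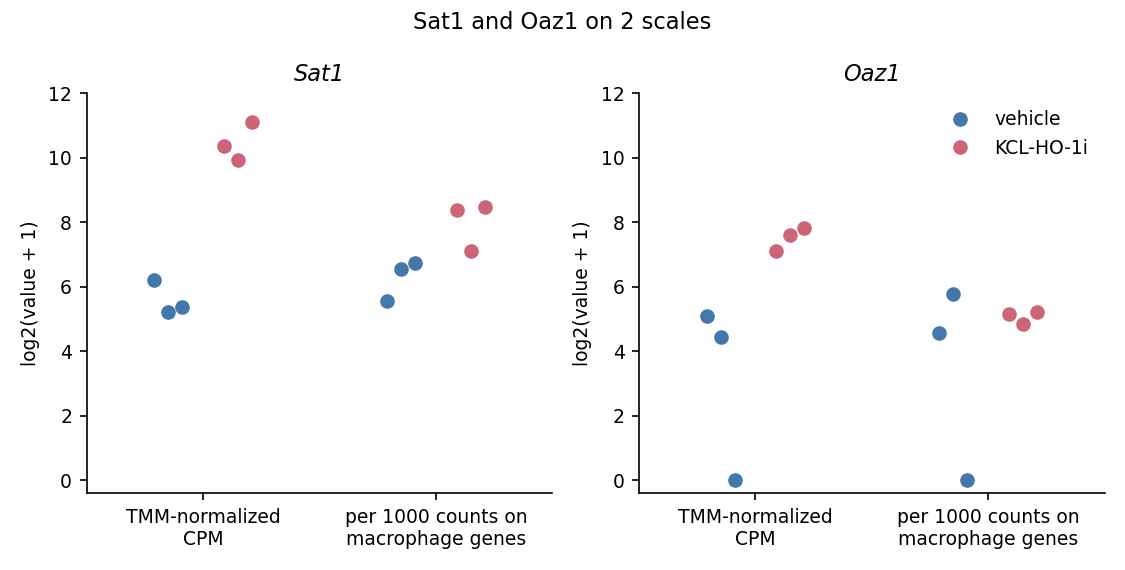
Sat1 and Oaz1 in each library as TMM-normalized CPM and as counts per 1000 counts on 15 general macrophage genes, both as log2(value + 1). Sat1 is higher in all KCL-HO-1i libraries on both scales, and the groups overlap for Oaz1 on the macrophage scale.

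Beyond the 10 members, a list of 31 genes of polyamine supply, transport and use was examined, all of which are listed in the data. Of these, 7 passed the filter on low counts, 3 with a log2 fold change above 0 and 4 below, and 0 were called in edgeR's fit. Over all genes tested, 32.6% had a log2 fold change above 0 and 0% were called. Mat2a, which makes the S-adenosylmethionine that Amd1 uses, was the 1 gene of the list with an unadjusted p under 0.05. Of all genes tested, 8.07% had one. It had 34, 16.6 and 14 counts in vehicle mice, against 31.3, 94 and 230 in treated mice, and its log2 fold change was 2.05 (SE 0.91). In edgeR's quasi-likelihood test it had an unadjusted p of 0.0453 and an adjusted p of 0.604. With limma voom and sample quality weights Mat2a was called higher, so its call depended on the tool, as that of Oaz1 did. Treated replicate 1 lay within the vehicle range, so the groups overlapped. Of all genes tested, 7.88% had all treated libraries above all vehicle libraries and 16.1% had all of them below. Those shares cover only genes that passed the filter. Of the 31 genes, 0 had all treated libraries above, and 2 that did not pass the filter had all of them below. These were Agmat, which hydrolyses agmatine to putrescine, with 1, 4 and 3 counts in vehicle mice, and Dohh, which completes hypusine, with 7, 3.50 and 6.75, and both were at 0 in all treated mice. They were named after their values were seen, and neither passed the filter on low counts.

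The best counted genes of the other roles did not separate either. Slc7a2, a cationic amino acid transporter that brings in arginine, had 26, 6 and 17 counts in vehicle mice, against 0, 35 and 21 in treated mice. Slc3a2, the heavy chain shared by several amino acid transporters and linked to polyamine export, had 3, 8 and 2 in vehicle mice, against 0, 64.1 and 33 in treated mice, high in a pair of treated mice and absent in the other. Eif5a2, a translation factor of the family that carries hypusine, a residue made from spermidine, had 31, 9 and 32 in vehicle mice, against 31, 27 and 0 in treated mice. Arg1 and Arg2, the arginases that make ornithine, had 1 and 2 counts over all 6 libraries, and Dhps, which starts hypusine synthesis, was listed at 0 throughout.

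The genes whose pattern was most like that of Sat1 were not polyamine genes. Over the 6 libraries, Pearson's r with Sat1 in TMM log2 CPM was 0.9936 for Uqcrh (a subunit of respiratory complex III), 0.9936 for Calm2 (calmodulin), 0.9933 for Rpl22l1 (a ribosomal protein paralog), 0.9932 for Atp5mpl (a small protein of the ATP synthase) and 0.9926 for Tomm5 (part of the mitochondrial import channel). These points share libraries, depth and the split into 2 groups, and each r is a description. Calm2, for example, had 9, 5 and 12.8 counts in vehicle mice, against 104, 120 and 184 in treated mice. Oaz1 had an r of 0.92 and stood at rank 151.

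The fold changes of the testable members were recomputed under 17 other settings. Sat1 stayed between 1.77 and 5.54 and Oaz1 between 0.46 and 4.74 on the log2 scale, both above 0 throughout, with the lowest value of each from the scaling to macrophage genes. Without KCL-HO-1i replicate 1, Sms and Paox stood at 0.014 and 0.043 instead of -0.85 and -0.84, since that library had 0 counts of either. Amd1 stood at 0.41 without vehicle replicate 2. Azin1 ran from -6.40 without KCL-HO-1i replicate 2, the 1 treated library with any count of it, to 0.64 without KCL-HO-1i replicate 3.

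**Figure D5:**
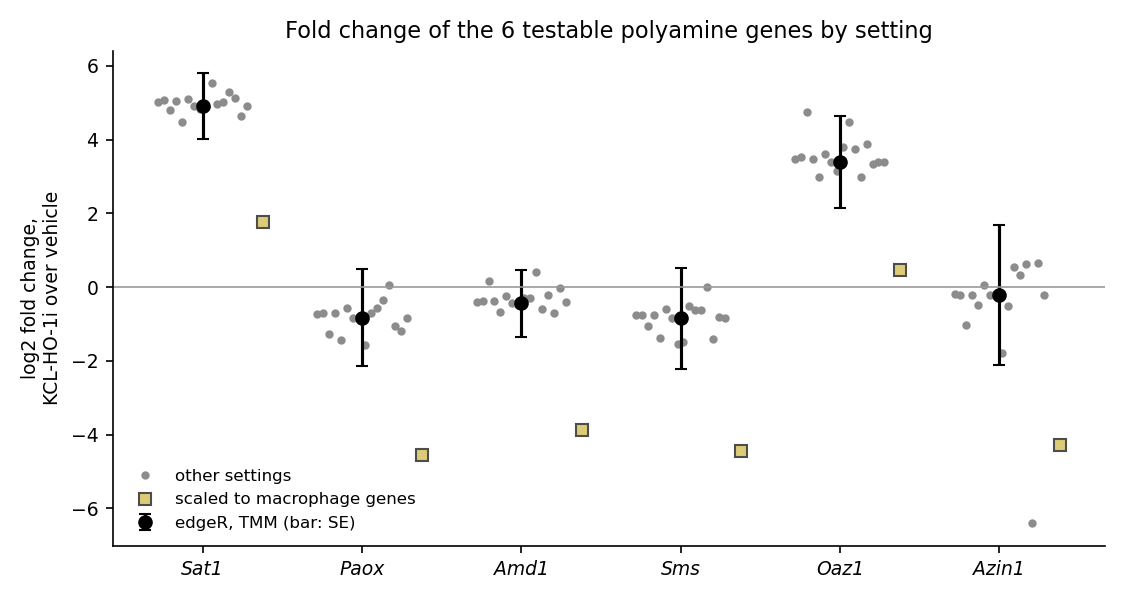
Log2 fold change of KCL-HO-1i over vehicle for the 6 polyamine genes that passed the filter, with edgeR's estimate and its SE in black, 16 other settings as grey points and the scaling to macrophage genes as squares. Sat1 and Oaz1 stay above 0 in all settings. The other 4 genes lie below 0 in edgeR's estimate and above 0 in at least 1 other setting each, up to 0.64 for Azin1 and 0.41 for Amd1.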

How the data were processed

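Per the paper's methods and the submitters' processing notes, the authors checked reads with FastQC 0.11.9, aligned them with STAR 2.7.9a and quantified them with Salmon 1.9.0 on mm10. The estimated counts they deposited are per gene, can be fractional and are not scaled for depth. The methods call the table TPM counts, but its totals differ between libraries, and the values were treated as estimated counts. The annotation used is not given in the sources used here. The kit was NEBNext Ultra II Directional.

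The counts were rounded, filtered with filterByExpr (minimum count 10, minimum total 15), scaled by TMM and fitted without covariates in edgeR 4.0.16 (R 4.3.3), with its quasi-likelihood test. Each SE in edgeR's fit is the log2 fold change, without sign, divided by the root of F. Log2 CPM used a prior count of 2. DESeq2 1.42.0 and limma 3.58.1 were alternatives. Adjusted p-values cover all genes tested. The script was tested on simulated data, with its pass limits checked at a spread between replicates (dispersion) far below that of these data. The common dispersion here was 0.903, so passing that test does not show the power of this fit. Positions, lengths and near copies (BLAST, 90% identity over 400 bases) come from GENCODE M21 on GRCm38. The detection floor was 3 counts. The 95th percentile of receptor genes was chosen as a reference after seeing the data.

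The members and gene lists were chosen with earlier results of these data known. Genes named are the 10 members, genes of the wider list with an unadjusted p under 0.05 or the highest count of their role, and the 5 genes most correlated with Sat1. Arg1, Arg2, Agmat, Dohh, Dhps and Slc7a1 were named after their values were seen. Each library carries the code of a different mouse. Same-numbered libraries of the groups come from different mice, and their deviations from the group means correlated at -0.00, 0.06 and -0.03.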

Additional observations from a re-analysis of the deposited data

How the results depend on the processing

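Against 0 genes called in edgeR's fit, 184 were called with DESeq2 without a filter, 236 with DESeq2 on the filtered genes, 299 with limma voom, 4814 with scaling to macrophage genes, 82 with no low-count filter and 586 at an unadjusted p under 0.05. Leaving out 1 library gave 0 to 74 genes, the 74 without vehicle replicate 1. Members called other than Sat1 went from 0 to 1 with limma voom, 4 with macrophage scaling and 1 at an unadjusted p. The wider list went from 0 to 1 at an unadjusted p, and it moved in other settings too. Its gene Mat2a was called higher with limma voom. Its genes Amd2 and Slc7a1, the latter of ornithine and arginine supply, were called lower with macrophage scaling. Members higher with KCL-HO-1i, Sat1 included, were 2 of 6 in edgeR's fit, beside 2367 of all 7263 genes tested. With DESeq2 without a filter they were 4 of 9, beside 6565 of 19518 genes. With no low-count filter they were 5 of 9, beside 7148 of 19518 genes, and more members entered in both settings. When a library was left out they ran from 2 to 7. They were 5 of 7 without vehicle replicate 2, beside 3907 of 9785 genes. Without KCL-HO-1i replicate 1 they were 7 of 8, beside 4447 of 10294 genes. Members with all treated libraries higher, Sat1 included, went from 2 to 1 under macrophage scaling, beside 572 and 55 of 7263 genes tested. With the replicate number as a block, 0 genes were called, Sat1 had a log2 fold change of 4.88 and Oaz1 of 3.79 (adjusted p = 0.580 in edgeR's test). The numbers do not pair the mice.

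Signs reversed for Azin1 (0.051 with no filter, 0.55 without vehicle replicate 2, 0.32 without vehicle replicate 3, 0.63 without KCL-HO-1i replicate 1 and 0.64 without KCL-HO-1i replicate 3), Amd1 (0.17 with limma voom and 0.41 without vehicle replicate 2), and Sms (0.014) and Paox (0.043) without KCL-HO-1i replicate 1. Over the fits that left out 1 library, log2 fold changes ran from -6.40 to 0.64 for Azin1, -0.70 to 0.41 for Amd1, -1.42 to 0.014 for Sms and -1.18 to 0.043 for Paox. The cause was not tested. Summing Amd1 and Amd2 was chosen after seeing the data. Members other than Sat1 had 0 to 63.2 counts in a library, which limits the precision of each, Oaz1 with vehicle included.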
